A study of Brassica rapa with 18 samples.

Results

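The 68 genes described here changed between 10 min and 72 h in mock-sprayed leaves of Brassica rapa and stayed close to mock after a spray with methyl jasmonate (MeJA). They were chosen by their measured values, from 42186 features in the table of read counts, of which 41018 had identifiers starting with Bra. Levels are in CPM, the raw counts scaled to a library total of 1000000. The rule took Bra genes with a mean of at least 5 CPM in mock 10 min or mock 72 h. The log2 ratio of the mock 72 h mean over the mock 10 min mean, each with 0.5 CPM added, had to reach 1 in size. The log2 ratio of the MeJA mean over the mock mean, computed in the same way, had to stay under 0.4 in size at each of the 3 harvests. Of the 68 genes, 17 rose and 51 fell from mock 10 min to mock 72 h.

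All plants were wild type of R-o-18, an inbred line of Brassica rapa variety trilocularis, and were 10 days old when sprayed. The 3 MeJA groups received 50 µM MeJA in 0.1% Tween-20 and the 3 mock groups received water with 0.1% Tween-20. Leaves were frozen 10 min, 24 h or 72 h after the spray, with 3 libraries in each of the 6 groups that the labels call biological replicates. The labels do not say how many plants went into a library, so p-values measure the spread between these libraries. The labels' batch field coincides with the harvest time. Age of the seedlings, time since the spray and batch therefore cannot be told apart in any comparison of times, and the clock hour of harvest is not given.

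MeJA is a volatile form of jasmonic acid, by which plants signal wounding and attack. In Arabidopsis its active conjugate brings a receptor complex together with JAZ repressors, whose breakdown releases MYC transcription factors onto jasmonate-responsive genes. Leaf transcripts also change without any hormone spray, as young leaves expand, stop dividing and mature, and with the daily clock. The 68 genes describe changes between harvests that were measured in both treatments. They do not show that MeJA had no effect on them. Each library is bulk leaf tissue, in which fewer cells of a type and less RNA per cell cannot be told apart. No identifier among the 68 was paired with a gene name by the sources used here, so the genes are described by identifier, level and time course.

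The libraries held between 13505607 and 17796115 counts, so that a floor of 3 counts lay between 0.169 and 0.222 CPM. The 68 genes took 0.116% to 0.170% of the counts of a library. Identifiers starting with ENSRNA took 4.42% to 5.80% of the counts in mock 72 h and 1.87% to 3.00% in mock 10 min, and their part in the CPM of other genes was not tested. Scaling by trimmed mean of M values (TMM) in place of totals moved the median log2 ratio of mock 72 h over mock 10 min from -0.03 to -0.01 over the 17396 genes past the level threshold. The median log2 ratio of MeJA over mock at 24 h was -0.14 by totals and -0.02 by TMM. Mock 10 min replicates 2 and 3 resembled each other most among replicate libraries, with a chi-square divided by its degrees of freedom of 1.49, against 4.90 to 26.9 for the other pairs. Whether these libraries were independent of each other was not tested. Their group enters the time ratio and the MeJA ratio at 10 min.

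Fewer of the time-changing genes than of all genes kept a measured MeJA ratio under 0.4 in size at all 3 times. Of the 17396 Bra genes past the level threshold, 365 also passed the time threshold, 100 upward and 265 downward. Their log2 ratio of MeJA over mock was under 0.4 in size for 221 at 10 min, for 117 at 24 h and for 182 at 72 h, and for 68 at all 3 times. This is 18.6% of the 365 genes, whereas 60.0% of all 17396 genes kept under the limit at all times. The share was 17% of the rises and 19.2% of the falls. These are the values that chose the genes and they are given as a description. The time ratio and the MeJA ratios share the mock 10 min and mock 72 h means. Time-changing genes also varied more between replicates. The median SD of log2 CPM within groups was 0.34 for the 68 and 0.39 for the 297 others, against 0.16 over all 17396. The part of this spread in the lower share was not tested. Many genes lay close to the limits, since 26 of the 68 reached 0.3 in size at some time and 39 had a time ratio under 1.2 in size. The nearest gene inside the MeJA limit stood at 0.3996 and the nearest outside at 0.4013. For the time ratio these values were 1.001 and 0.9916, and for the level they were 5.35 and 4.92 CPM.

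**Figure D1:**
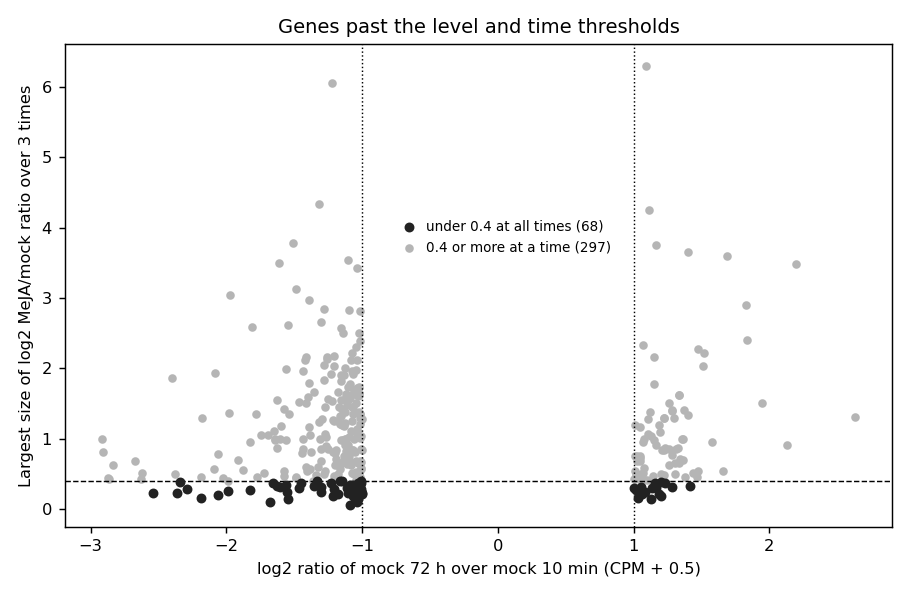
Each point is 1 of the 365 genes past the level and time thresholds, with the log2 ratio of mock 72 h over mock 10 min on the horizontal axis and the largest size of its log2 MeJA/mock ratio over the 3 times on the vertical axis. The 68 black points lie under the dashed line at 0.4, and the 297 grey points on or above it.

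The genes were of moderate abundance. The 17 that rose had means of 4.19 to 273.5 CPM over the 18 libraries with a median of 12.2, and the 51 that fell had 4.49 to 100.3 CPM with a median of 10.7. The median over all 17396 genes past the level was 18.5 CPM. Summed over the 17 genes that rose, MeJA libraries averaged 309.7 CPM at 10 min, 651.6 at 24 h and 684.3 at 72 h, and mock libraries 329.2, 590.1 and 743.1 CPM. Summed over the 51 genes that fell, MeJA libraries averaged 1087 CPM at 10 min, 882.9 at 24 h and 511.0 at 72 h, and mock libraries 1122, 932.8 and 458.4 CPM. By these sums the rises were mostly in place at 24 h, while more of the fall came between 24 h and 72 h. Bra030284 alone averaged 352.7 CPM in MeJA 24 h and 364.3 CPM in mock 72 h, so it weighs heavily in the rising sums. Gene by gene, the median log2 rise was 0.84 in MeJA and 0.77 in mock from 10 min to 24 h. From 24 h to 72 h it was 0.36 and 0.35.

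Rises and falls had similar median sizes, and the falls reached further. In MeJA libraries the log2 ratio of 72 h over 10 min lay between 0.81 and 1.52 with a median of 1.02 for the genes that rose, and between -0.51 and -2.16 with a median of -1.09 for those that fell. In mock libraries it lay between 1.00 and 1.42 among the genes that rose, with a median of 1.14, and reached -2.54 among the genes that fell, with a median of -1.16. None of the rises and 15 of the falls in mock exceeded 1.5 in size. The limits on the MeJA response fix these directions, so that MeJA libraries do not add an independent test of them.

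In edgeR's quasi-likelihood test, with Benjamini-Hochberg adjustment over 26593 features, 15 of the 17 rises were called higher in MeJA 72 h than in MeJA 10 min at an adjusted p under 0.05, where 11.9% of all features were. Of the 51 falls, 47 were called lower there, where 14.2% of all features were. In mock, 16 of the 17 were called higher, with 9.16% of all features, and all 51 lower, with 10.6% of all features. The 3 values of MeJA 72 h and the 3 of MeJA 10 min did not overlap for 16 of the 17 rises and 49 of the 51 falls, as for 18.8% upward and 29.1% downward of the genes past the level. In mock they did not overlap for any of the 17 and 51, with 21.9% and 30.1% of the genes past the level. The rule used this contrast, and nothing is read from these counts.

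**Figure D2:**
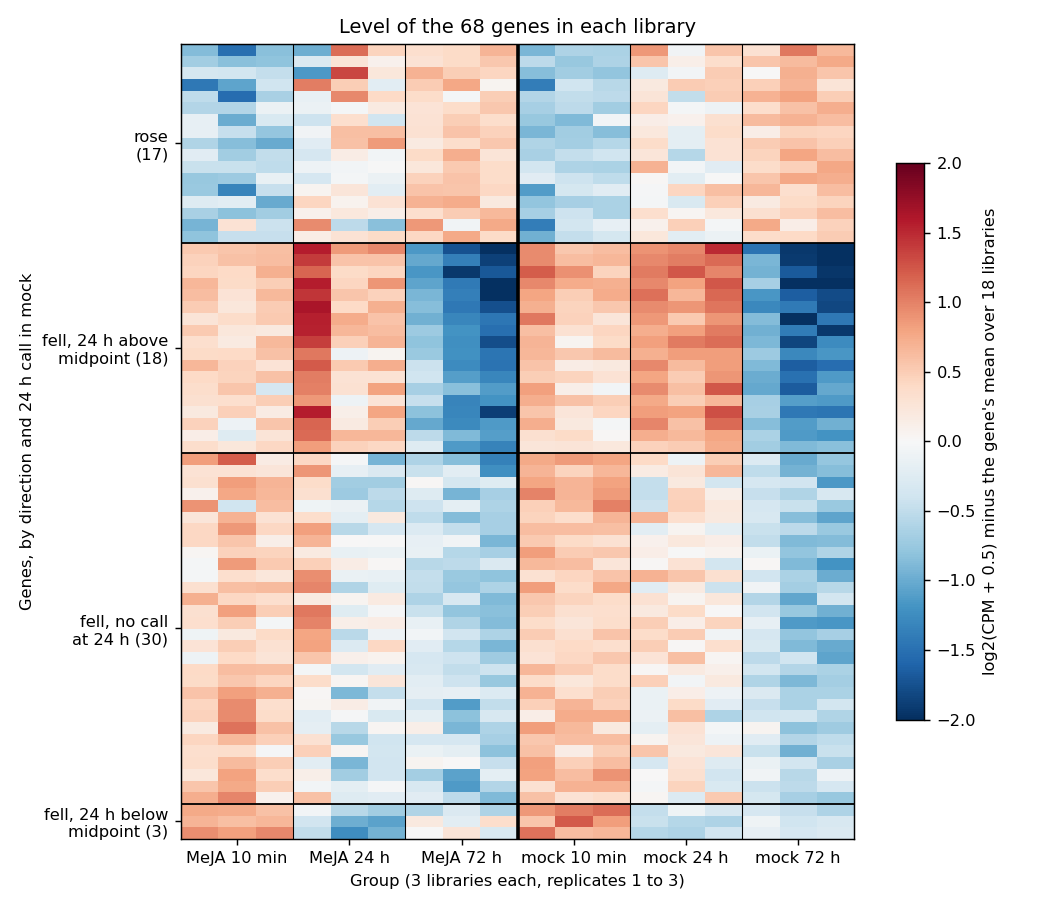
Rows are the 68 genes and columns the 18 libraries, with colour giving log2(CPM + 0.5) minus the gene's mean over all libraries, red above and blue below. Rows are grouped by direction and by the 24 h test in mock (17 that rose, then 18, 30 and 3 that fell), and the 18 genes of the second block are red in both 24 h groups and deepest blue in both 72 h groups.

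The rule limited the MeJA ratio at 24 h but set no 24 h level by itself, and the 24 h level divided the genes that fell. This level was compared with the midpoint of 10 min and 72 h on the log2 scale within each treatment. The contrast is unrelated to the difference of 72 h and 10 min only where both times vary alike between replicates. For the 18 genes called above the midpoint in mock, the median SD in mock was 0.19 at 10 min and 0.44 at 72 h. Choosing genes for a low mock 72 h mean can thus also favour a 24 h level above the midpoint. In MeJA, 21 of the 51 falling genes were above the midpoint at 24 h and 5 were below it (edgeR, adjusted p under 0.05), where 12.1% and 8.40% of all features were. In mock, 18 were above and 3 below, where 1.02% and 1.27% of all features were, and all of these were called with the same sign in MeJA. Among the 214 falling genes over the MeJA limit, 39 were above (18.2%) and 52 below (24.3%) in MeJA, and 19 were above (8.88%) and 4 below (1.87%) in mock. A gene that changes over time has more room to leave the midpoint than a flat one, so the share of all features is a low baseline. The MeJA ratio at 24 h that sorted the 51 from the 214 also holds the mock 24 h level, and the difference between them was not tested. The limit on the MeJA ratio also keeps this contrast in MeJA within 0.8 of that in mock on the rule's CPM scale, so the likeness of the treatments was in part set by the choice of genes. Without mock 24 h replicate 3, 10 falling genes were called above and 1 below in mock.

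By their means, the 18 genes above the midpoint in mock stood near or above their 10 min level at 24 h and then dropped. Their median log2 difference of 24 h from 10 min was 0.44 in MeJA, between -0.02 and 0.77, and 0.37 in mock, between 0.04 and 0.60. That of 72 h from 24 h was -2.11 in MeJA, between -1.34 and -2.76, and -2.15 in mock, between -1.37 and -2.97. By level, the median of the 18 genes was 11.8 CPM at 10 min, 18.1 at 24 h and 3.72 at 72 h in MeJA, and 13.4, 17.7 and 3.20 CPM in mock. By library, the MeJA 24 h median was 25.5 CPM in replicate 1, 12.5 in replicate 2 and 13.7 in replicate 3. For all 18 genes the 3 values at 72 h were below the 3 at 24 h in MeJA and likewise in mock, as for 12.7% of the genes past the level in MeJA and 25% in mock. The choice of the 18 by their mock fall and their mock 24 h call favoured this in mock. The limits on the MeJA ratio carried it over to MeJA, so nothing is read from this count. The 3 values at 24 h were above the 3 at 10 min for 4 of the 18 genes in MeJA and for 10 in mock, with 12.7% and 24.4% of the genes past the level. For the others the values at 24 h and at 10 min overlapped. Choosing the 18 by their mock 24 h call favoured these counts as well, so nothing is read from them. No test of 24 h against 10 min alone was made.

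**Figure D3:**
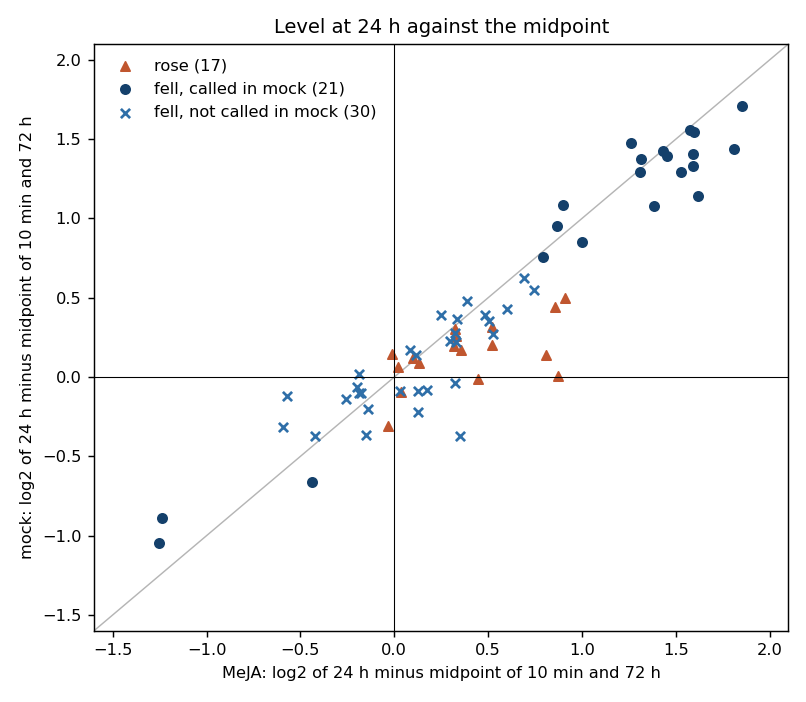
Each point is 1 of the 68 genes, with the log2 difference of 24 h from the midpoint of 10 min and 72 h in MeJA on the horizontal axis and in mock on the vertical axis, and equal values along the grey line. The 18 falling genes called above the midpoint in mock lie between 0.79 and 1.85 in MeJA and between 0.76 and 1.71 in mock, while the 17 that rose reach 0.91 in MeJA and 0.50 in mock.

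Bra012252 had the second largest fitted fall of the 68 in mock and the highest 24 h level relative to its midpoint. In MeJA libraries it had 17.9, 18.3 and 18.8 CPM at 10 min, 37.3, 22.7 and 24.4 at 24 h, then 5.29, 3.33 and 2.56 at 72 h. In mock libraries it had 24.0, 18.2 and 19.1 CPM at 10 min, 23.3, 24.3 and 35.6 at 24 h, then 4.10, 2.87 and 2.34 at 72 h. All 6 values at 72 h were below all 12 earlier ones, and MeJA and mock overlapped at each harvest. At 24 h it was above the midpoint by 1.85 in MeJA (SE 0.19; edgeR adjusted p = 3.26e-06) and by 1.71 in mock (SE 0.20; edgeR adjusted p = 0.000364), and both calls held in all 15 alternatives each.

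Bra013800 had the same course at a lower level. In MeJA libraries it had 5.21, 4.62 and 6.59 CPM at 10 min, 11.2, 5.81 and 6.76 at 24 h, then 2.09, 1.44 and 0.814 at 72 h. In mock libraries it had 6.72, 4.17 and 5.39 CPM at 10 min, 7.45, 8.79 and 9.28 at 24 h, then 1.91, 0.762 and 1.39 at 72 h. MeJA and mock overlapped at each harvest, and in mock the 24 h values were all above those at 10 min. It was above the midpoint at 24 h by 1.57 in MeJA (SE 0.25; edgeR adjusted p = 0.000219) and by 1.56 in mock (SE 0.25; edgeR adjusted p = 0.00370).

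The largest fitted fall was that of Bra038972, which also belonged to the 18. It had 4.70, 4.62 and 5.85 CPM in MeJA at 10 min, 8.15, 4.55 and 4.72 at 24 h, then 1.22, 0.517 and 0.698 at 72 h. Mock libraries had 8.42, 6.78 and 4.74 CPM at 10 min, 7.45, 8.65 and 7.07 at 24 h, then 1.52, 0.704 and 0.507 at 72 h. The values at 72 h were below all others in both treatments, and MeJA and mock overlapped at each harvest. At 72 h each library held 8 to 27 counts of it, against 65 to 129 at the earlier times. Its fitted log2 ratio of 72 h over 10 min was -2.58 in MeJA (SE 0.36) and -2.82 in mock (SE 0.34). At 24 h it was above the midpoint by 1.54 in mock (SE 0.26; edgeR adjusted p = 0.00428).

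The 3 genes below the midpoint fell early instead. The median log2 difference of 24 h from 10 min was -1.43 in MeJA and -1.33 in mock, and that of 72 h from 24 h was 0.86 and 0.26. For all 3 genes the values at 24 h were below those at 10 min without overlap, as for 28.6% of the genes past the level in MeJA and 14% in mock. For 2 of them the values at 72 h were above those at 24 h without overlap in each treatment, as for 20.6% in MeJA and 8.02% in mock. The choice of the 3 genes by their mock fall and their mock 24 h call favoured low 24 h values in mock. The limits on the MeJA ratio carried this over to MeJA, so nothing is read from these counts.

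Bra039503 was the one farthest below its midpoint in mock. It had 7.16, 6.69 and 7.03 CPM in MeJA at 10 min, 3.13, 1.91 and 1.76 at 24 h, then 4.94, 3.62 and 5.58 at 72 h. In mock it had 6.53, 10.6 and 7.97 CPM at 10 min, 2.98, 2.70 and 2.60 at 24 h, then 3.99, 3.11 and 3.29 at 72 h. The lowest values were those of 24 h in both treatments. It was below the midpoint by 1.25 in MeJA (log2 difference -1.25, SE 0.20; edgeR adjusted p = 0.000208) and by 1.05 in mock (log2 difference -1.05, SE 0.19; edgeR adjusted p = 0.00831), and the mock call was lost without mock 24 h replicate 3 (adjusted p = 0.0634). Its log2 ratio of 72 h over 10 min was not called in MeJA, at -0.51 (SE 0.20; edgeR adjusted p = 0.0723).

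Bra025406 was the more abundant of this kind. It had 110.4, 102.5 and 112.8 CPM in MeJA at 10 min, 40.7, 24.1 and 29.7 at 24 h, then 57.1, 68.8 and 46.6 at 72 h. In mock it had 123.4, 89.0 and 91.4 CPM at 10 min, 38.6, 37.4 and 44.2 at 24 h, then 51.4, 45.6 and 47.3 at 72 h. Within each treatment no 2 times overlapped. Its log2 difference from the midpoint at 24 h was -1.24 in MeJA (SE 0.15; edgeR adjusted p = 1.74e-05) and -0.89 in mock (SE 0.15; edgeR adjusted p = 0.00471).

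For the other 30 falling genes the 24 h level was not called in mock. Their median log2 difference was -0.41 in MeJA and -0.51 in mock from 10 min to 24 h, and -0.58 and -0.63 from 24 h to 72 h. The median level was 13.3 CPM at 10 min, 8.997 at 24 h and 6.51 at 72 h in MeJA, and 14.3, 9.39 and 6.41 CPM in mock. The most abundant falling gene, Bra032906, was among them. It had 127.5, 140.3 and 103.1 CPM in MeJA at 10 min, 152.2, 95.6 and 94.7 at 24 h, then 85.3, 90.3 and 50.0 at 72 h. In mock it had 137.2, 124.0 and 118.3 CPM at 10 min, 100.8, 110.7 and 104.0 at 24 h, then 67.6, 51.3 and 51.8 at 72 h. The 3 times did not overlap in mock, whereas in MeJA 24 h replicate 1 was above all 10 min values. Its log2 ratio of 72 h over 10 min was -0.66 in MeJA (SE 0.19; edgeR adjusted p = 0.0176) and -1.13 in mock (SE 0.20; edgeR adjusted p = 0.00121). The MeJA call was lost without MeJA 10 min replicate 2, without MeJA 72 h replicate 3 and with only the libraries of that contrast, where the adjusted p reached 0.0891 at most. Without MeJA 72 h replicate 3 its log2 ratio of MeJA over mock at 72 h was 0.59 (edgeR adjusted p = 0.0421), in place of 0.36 with all libraries (adjusted p = 0.256).

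All 17 genes that rose were higher at 24 h than at 10 min by their means in both treatments, with a median log2 difference of 0.84 in MeJA and 0.77 in mock. The 3 values at 24 h were above the 3 at 10 min for 11 of the 17 in MeJA and for 16 in mock, with 12.7% and 24.4% of the genes past the level. The choice of the 17 by their mock rise favoured low 10 min values in mock. The limits on the MeJA ratio carried this over to MeJA, so nothing is read from these counts. From 24 h to 72 h the median difference was 0.36 in MeJA, where 14 genes went up and 3 down by their means, and 0.35 in mock, where all 17 went up. The 24 h mean lay nearer 10 min for 5 genes in MeJA, nearer 72 h for 9 and beyond 72 h for 3, and in mock it lay nearer 10 min for 2 and nearer 72 h for 15. Of the 17 genes, 11 were in the same class in both treatments. In MeJA 5 were called above the midpoint at 24 h by edgeR (29.4% of the 17, with 12.1% of all features), as were 29 of the 83 rising genes over the MeJA limit (34.9%). In mock none was called by edgeR or DESeq2, and 1 had an unadjusted p under 0.05, whereas 11 of the 83 were called above (13.3%) and 4 below (4.82%). Whether the 5 differed between MeJA and mock was not tested.

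Bra030284 was the most abundant of the 68 genes. It had 168.1, 140.1 and 126.7 CPM in MeJA at 10 min, 216.7, 381.2 and 460.1 at 24 h, then 288.6, 325.8 and 368.3 at 72 h. In mock it had 166.6, 157.8 and 171.6 CPM at 10 min, 326.2, 221.0 and 311.7 at 24 h, then 361.5, 378.5 and 352.9 at 72 h. All 24 h and 72 h values were above all 10 min values. At 24 h it was above the midpoint by 0.81 in MeJA (SE 0.18; edgeR adjusted p = 0.00400), a call lost without MeJA 24 h replicate 3 (adjusted p = 0.0751). In mock the difference was 0.14 (SE 0.18; edgeR adjusted p = 0.756). Without MeJA 24 h replicate 1, its log2 ratio of MeJA over mock at 24 h was 0.72 (edgeR adjusted p = 0.00262), in place of 0.44 with all libraries (adjusted p = 0.139).

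The largest fitted rises in mock were those of Bra024326 and Bra033335. Bra024326 had 11.4, 7.10 and 11.6 CPM in MeJA at 10 min, 10.5, 46.7 and 29.0 at 24 h, then 26.9, 27.7 and 34.1 at 72 h. Mock libraries had 10.97, 13.6 and 13.5 CPM at 10 min, 38.9, 20.1 and 31.4 at 24 h, then 26.2, 44.5 and 33.5 at 72 h. MeJA 24 h replicate 1 was at the level of 10 min, apart from the other two. Its log2 ratio of 72 h over 10 min was 1.62 in MeJA (SE 0.39; edgeR adjusted p = 0.00589) and 1.47 in mock (SE 0.38; edgeR adjusted p = 0.0120), and the mock call was lost without mock 72 h replicate 2 (adjusted p = 0.0560).

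Bra033335 was a gene of low level. It had 1.37, 1.93 and 3.33 CPM in MeJA at 10 min, 9.82, 6.67 and 3.86 at 24 h, then 6.69, 8.15 and 4.77 at 72 h. Mock libraries had 1.44, 3.36 and 2.94 CPM at 10 min, 5.31, 6.71 and 6.54 at 24 h, then 6.57, 7.62 and 5.58 at 72 h. MeJA and mock overlapped at each time, and no value of 24 h or 72 h was as low as those of 10 min. Its log2 ratio of 72 h over 10 min was 1.62 in MeJA (SE 0.35; edgeR adjusted p = 0.00295) and 1.38 in mock (SE 0.34; edgeR adjusted p = 0.00919), the mock call being lost without mock 10 min replicate 1 (adjusted p = 0.0510).

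**Figure D4:**
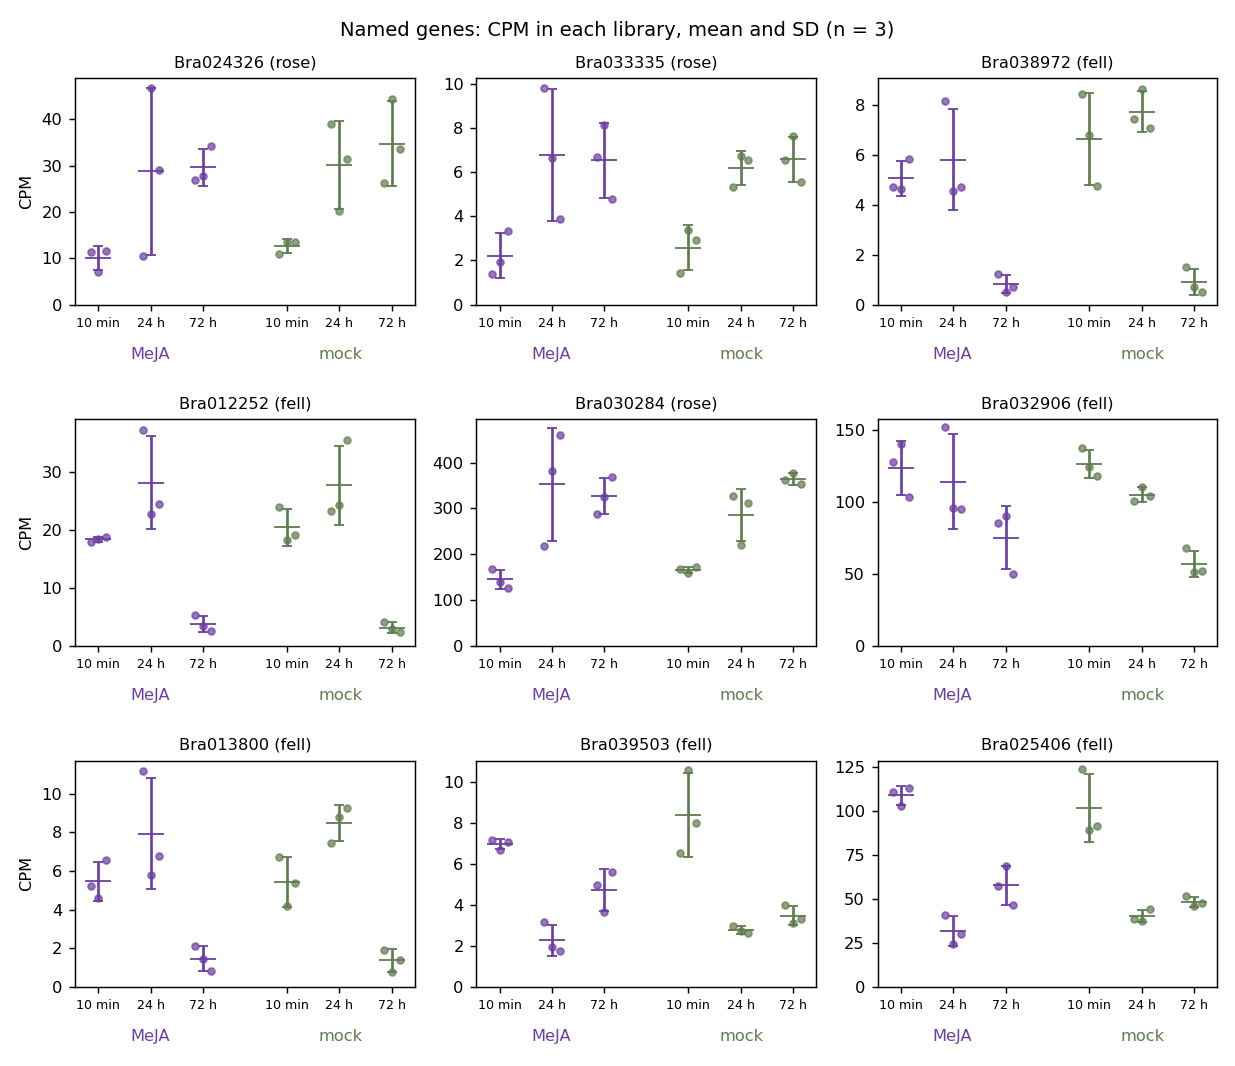
CPM of the 9 named genes in each library, with MeJA left of mock and times from 10 min to 72 h, points for libraries and bars for the mean and SD (n = 3). Bra012252, Bra013800 and Bra038972 are lowest at 72 h, Bra039503 and Bra025406 are lowest at 24 h, and the 3 genes that rose are lowest at 10 min.

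A ratio under 0.4 does not show that MeJA had no effect on a gene. None of the 68 genes was called between MeJA and mock by edgeR or by DESeq2 at any harvest, where edgeR called 7.13% of all features at 10 min, 28.5% at 24 h and 9.74% at 72 h. At an unadjusted p under 0.05 there were 1, 1 and 0 of the 68. The rule chose for this. The 95% interval of the log2 ratio had a median half-width of 0.50 at 10 min, 0.49 at 24 h and 0.52 at 72 h. It lay within 1 of 0 on both sides for 60, 64 and 60 genes, and for 55 genes at all 3 times. It lay within 0.4 for 4, 2 and 4 genes. For 13 genes a response of 1 on the log2 scale at some time was thus within the interval.

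The choice of genes rested on single libraries to differing degrees. When each library was left out in turn, 5 of the 68 genes met the rule every time, 3 that rose and 2 that fell. The median gene met it in 15.5 of 18 cases. MeJA 24 h replicate 1 mattered most, since without it 31 of the 68 genes no longer met the rule, among them 10 of the 18 that dropped after 24 h, and 44 genes met it in all. Without that library, 7 of the 68 genes were called between MeJA and mock at 24 h by edgeR, 3 higher and 4 lower. For any other library left out, 2 to 19 of the 68 genes no longer met the rule.

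The 68 genes varied more between replicates than most. The median SD of log2 CPM within groups was 0.34 for them, 0.30 for those that rose and 0.34 for those that fell. It was 0.16 over all 17396 genes past the level, 0.16 also within the range of mean levels of the 68, and 0.39 for the 297 other time-changing genes. The spread was not the same in all groups. For the 18 genes that dropped after 24 h the median SD was 0.16 at 10 min, 0.44 at 24 h and 0.49 at 72 h in MeJA, and 0.19, 0.19 and 0.44 in mock.

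This spread was shared between genes. Deviations were taken from each library's own group mean, so the group means that the rule compared are removed. Each library is still part of its group mean. Without MeJA 24 h replicate 1 only 8 of the 18 genes that dropped after 24 h still met the rule. The deviations of that library are therefore not independent of the choice of genes. The same holds for the 72 h libraries, whose means also entered the rule. Among the 18, for example, Bra012252 did not meet the rule without mock 72 h replicate 1, nor Bra022567 without MeJA 72 h replicate 1. In MeJA 24 h replicate 1, all 18 genes that dropped after 24 h were above their group mean, with a median deviation of 0.48, and the 17 genes that rose had a median of -0.26. In MeJA 72 h replicate 1 and mock 72 h replicate 1 all 18 were again above it, with medians of 0.54 and 0.43, and the rising genes had medians of -0.11 and -0.12. In these 3 libraries the falling genes thus stood higher and the rising genes lower, by their medians, than in the other libraries of their groups. Of the 17 rising genes, 3, 6 and 6 were still above their group mean. Over all features tested the median deviations were -0.0026, 0.0077 and 0.0064. The 18 genes had a median of 25.5 CPM in MeJA 24 h replicate 1, and of 12.5 and 13.7 CPM in replicates 2 and 3. The 3 MeJA 10 min libraries had 10.9 to 11.9 CPM. Over all 18 libraries, the median deviations of the 17 rising and 51 falling genes lay on opposite sides of 0 in 15, and in 14 with scaling by totals or by DESeq2 size factors. In MeJA 24 h replicate 1 ENSRNA identifiers took 1.47% of the counts, against 1.70% and 2.38% in replicates 2 and 3, and in MeJA 72 h replicate 1 they took 1.69%, against 3.98% and 4.03%. In mock 72 h replicate 1 they took 5.80%, against 5.19% and 4.42%. Their part in the deviations was not tested.

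**Figure D5:**
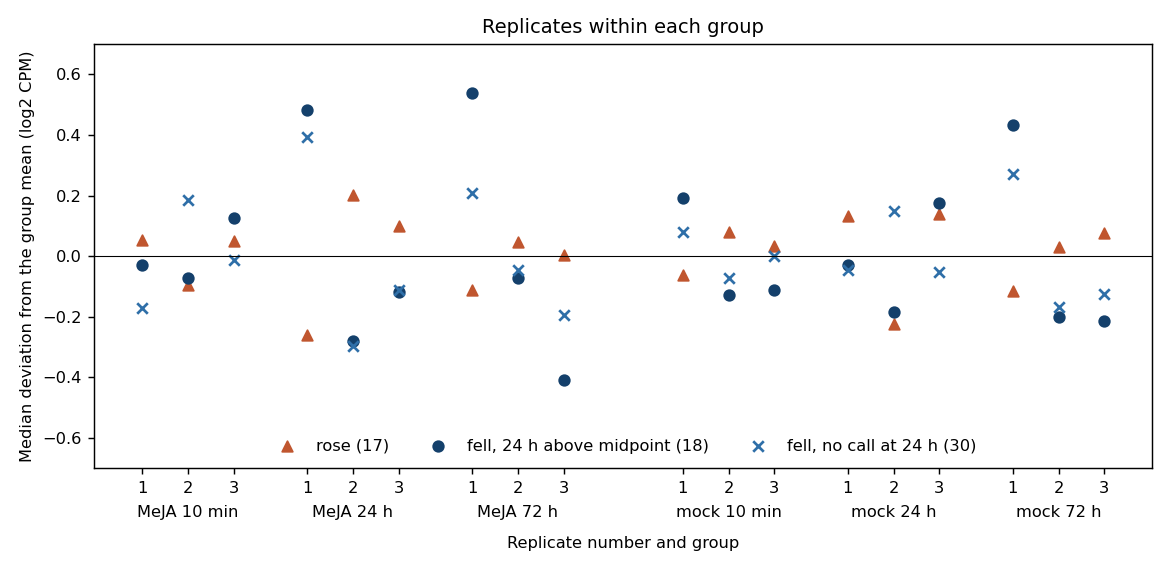
Median deviation of log2 CPM from the group mean in each of the 18 libraries, for the 17 genes that rose (triangles), the 18 falling genes above the midpoint at 24 h (circles) and the 30 falling genes with no call there (crosses). Circles reach 0.48 in MeJA 24 h replicate 1, 0.54 in MeJA 72 h replicate 1 and 0.43 in mock 72 h replicate 1, where triangles are below 0.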

How the data were processed

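The deposited values were raw counts of reads per gene in 18 libraries, whole numbers with no scaling by the authors. Libraries were stranded mRNA, per the labels' protocols. FastQC, TopHat2, HTSeq and edgeR are listed, per the submitters' processing notes, without roles or versions. The build, the gene models and whether counting used strand were not stated there, so genes with near-identical copies, or that overlap, are uncertain. In the RefSeq table of 51589 genes (assembly CAAS_Brap_v3.01), 1 identifier of the count table matched and none of the 68.

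Members and lists were chosen with earlier results of these data known. The planned gene lists could not be filled and were not tested. Tests used edgeR 4.0.16 in R 4.3.3: filterByExpr left 26593 features (all 68 genes among them), TMM scaling, 1 quasi-likelihood fit of 6 group means, Benjamini-Hochberg adjustment over all features and calls at an adjusted p under 0.05. The SE is the log2 fold change divided by the root of F, and 95% intervals use the t quantile. CPM in the text are by library totals, and log2 CPM for deviations used TMM and a prior count of 2. Library totals limit precision: floors of 3 counts cover counting error only. The procedure was tested on simulated data in which only mock 24 h levels were changed. Those data held neither unequal spread between times nor a choice of genes by their time change, so they do not address these limits.

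Genes were named by a rule: the 2 largest fitted rises and falls in mock without overlap, the most abundant of each direction, and the 2 highest and 2 lowest 24 h levels against the midpoint in mock among those called with the same sign in MeJA. Alternatives were other scalings, DESeq2 1.42.0, no filter, a replicate block, fits on fewer libraries, other limits of the rule, and each library left out.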

Additional observations from a re-analysis of the deposited data

How the results depend on the processing

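The number of genes that met the rule, 68, was 42 with a limit of 0.3 on the MeJA ratio, 107 with a limit of 0.5, 15 with a time ratio of 1.5, 107 with a level of 1 CPM and 43 with 10 CPM. It was 75 with TMM scaling, of which 54 were among the 68, and 66 with group medians, of which 37 were. Leaving out 1 library gave 44 to 80 genes. The count of genes called away from the midpoint in mock, 21, was 21 or 22 in the other settings and 11 to 21 with a library left out, lowest without mock 24 h replicate 3. Over all features the share called there was 2.30%, and it ran from 0.481% (without that library) to 5.83% (mock libraries only). In MeJA the count of 31 ran from 24 to 33. The count of 0 genes called between MeJA and mock at 24 h was 1 with scaling by library totals and 0 to 7 with a library left out, and that at 72 h was 0 to 1. No named gene reversed a called direction in any alternative.

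Replicate numbers did not pair the libraries across all groups: correlations of same-numbered libraries' deviations ran from -0.35 to 0.29 over 15 pairs of groups and passed 0.1 for all 3 numbers in none. In 1 of the 15, MeJA 24 h with mock 72 h, every library correlated best with its own number. The 3 libraries described above as standing apart together were all replicate 1. Their correlations were 0.12 (MeJA 24 h with MeJA 72 h), 0.20 (MeJA 24 h with mock 72 h) and 0.29 (MeJA 72 h with mock 72 h). Replicates 1 of MeJA 10 min and MeJA 24 h had -0.29. Whether the 3 libraries shared a source was not tested. With the replicate block, 64 genes in MeJA and 67 in mock were called for 72 h against 10 min (62 and 67 without it), 32 in MeJA and 21 in mock for 24 h against the midpoint, and 0 between MeJA and mock at each time.

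At library totals of 13505607 to 17796115 counts, a gene of 5 CPM has few enough reads for counting error to add to the spread. Having 3 replicates per group limits all tests, and the time courses are those of 1 batch per time.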
